A study of Mus musculus with 6 samples.

Results

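The genes studied here encode the machinery with which a nerve terminal stores transmitter in synaptic vesicles, fuses the vesicles with its membrane and takes them up again. They are 48 genes in all: 12 for proteins of the vesicle, 8 synaptotagmins, 5 SNARE genes, 8 regulators of SNARE assembly, 10 scaffolds of the active zone and 5 genes of endocytosis. A member was found in the authors' table, which has 32357 rows and gives positions but no gene names, where the span of a row and the annotated span of the gene overlapped by at least 0.5 of their union. This gave a row for 47 of the 48 genes. Syn1, which encodes the most studied synapsin, had no row that reached this overlap.

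Primary cortical cultures were prepared from Balb/c mouse embryos at E14.5, and the cell suspension was electroporated before plating. The knockdown cultures received a plasmid for shNeurod2-1 or for shNeurod2-2, short hairpin RNAs that silence the transcription factor gene Neurod2, and the control cultures received a non-silencing shRNA in the same backbone, which carries GFP. RNA from the whole dish was collected at 4 days in vitro by the labels, and the paper's methods give a later day. There were 4 knockdown libraries, 2 for each shRNA, and 2 non-silencing libraries; whether those of 1 shRNA came from separate cultures is not stated. The authors' table holds 1 value per group, in FPKM (fragments scaled to transcript length and to the mapped fragments of the library), with both shRNAs pooled. The spread between libraries, the effect of each shRNA alone and the depth behind a value could therefore not be given, and no test between libraries could be made. A difference is described below by the log2 ratio of the knockdown value over the non-silencing value, beside the same ratio in all rows of the table, and none of these differences is shown to exceed the spread between libraries. The libraries hold the RNA of every cell in the dish, so fewer cells that express a gene and less of its RNA per cell cannot be told apart.

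Transmitter release follows the same steps in most neurons. Vesicles are tethered at the active zone by large scaffold proteins, and Munc13 and Munc18 proteins help syntaxin, SNAP25 and synaptobrevin (VAMP) to zip into the SNARE complex. Complexins hold this complex ready, synaptotagmins trigger fusion when calcium enters, NSF takes the spent complexes apart, and dynamin, amphiphysin and synaptojanin serve the retrieval of the membrane. In the embryonic cortex these genes come on as neurons leave the cell cycle and grow axons, before most synapses have formed.

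Neurod2 itself stood at 60.3 FPKM in the knockdown and 104.8 FPKM with the non-silencing shRNA, a log2 ratio of -0.80. Over the 12624 rows with a mean of both values of at least 1 FPKM and both above 0, the median log2 ratio was -0.03, and the middle 90% of rows lay between -0.34 and 0.28. General neuronal markers summed to 2129 FPKM in the knockdown and 1985 FPKM with the non-silencing shRNA over 8 of 10 listed genes. Of the 8, 6 were above 0 on the log2 scale, beside 41.6% of all rows. Counted at a mean of at least 1 FPKM, 4 of 8 excitatory neuron and 2 of 6 astrocyte markers were above 0. So were 1 of 8 oligodendrocyte lineage markers, 1 of 2 GABAergic neuron markers and 1 of 2 fibroblast and mural markers. Excitatory neuron markers summed to 528 FPKM in the knockdown and 558 FPKM with the non-silencing shRNA (8 of 9 listed genes), but the list holds Neurod2 itself, and the other 7 summed to 467 FPKM in the knockdown and 454 FPKM with the non-silencing shRNA. Astrocyte markers summed to 239 FPKM in the knockdown and 255 FPKM with the non-silencing shRNA (7 of 8 listed genes with a row). Gfap alone was at 35.1 FPKM in the knockdown and 57.4 FPKM with the non-silencing shRNA, and the other 6 summed to 204 FPKM in the knockdown and 198 FPKM with the non-silencing shRNA. Oligodendrocyte lineage markers summed to 110.2 FPKM in the knockdown and 117.8 FPKM with the non-silencing shRNA (8 of 8). GABAergic neuron markers summed to 11.2 FPKM in the knockdown and 8.11 FPKM with the non-silencing shRNA (5 of 10 listed genes with values). Of this, Sst alone was at 6.55 FPKM in the knockdown and 3.29 FPKM with the non-silencing shRNA, and the other 4 summed to 4.62 FPKM in the knockdown and 4.82 FPKM with the non-silencing shRNA. Npy also has a row, but its level cells, altered by a spreadsheet, could not be restored, so these sums leave it out. Fibroblast and mural markers summed to 7.09 FPKM in the knockdown and 4.40 FPKM with the non-silencing shRNA (8 of 8). Only 2 of them had a mean of at least 1 FPKM. Dcn was at 1.56 FPKM in the knockdown and 1.55 FPKM with the non-silencing shRNA, and Pdgfrb at 1.38 FPKM and 1.56 FPKM. Under 1 FPKM, Col1a1, Col3a1, Acta2 and Postn were higher in the knockdown, Col1a2 was nearly equal and Lum was lower. Microglial markers summed to 0.565 FPKM in the knockdown and 0.204 FPKM with the non-silencing shRNA (6 of 8), and none reached 1 FPKM. Of these, Ptprc and C1qa were listed at 0 with the non-silencing shRNA. The part of these cell types in the ratios of the release genes was not tested.

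Of the 47 members with a row, 43 had a mean of at least 1 FPKM and 4 lay below it. None of the 43 differed by over 1.5-fold in either direction, against 3.45% of all rows past the same filter (1.35% higher and 2.09% lower in the knockdown). With so low a background, a count of 0 does not set these genes apart from other rows. At 1.2-fold, 1 member was higher in the knockdown (background 5.81%) and 2 were lower (background 8.03%). The 43 log2 ratios ran from -0.43 to 0.39 with a median of -0.00211 (0.03 with the median of all rows set to 0), and 20 of them lay within 0.1 of 0. A log2 ratio above 0 was found for 21 of the 43 members (48.8%) and for 41.6% of all rows. Summed over the 43 genes, the level was 1509 FPKM in the knockdown and 1467 FPKM with the non-silencing shRNA, a ratio of 1.03, beside 0.918 for the sum over all rows, where single rows reach 428322 FPKM in the knockdown. Without Syt4, the most abundant member, the other 42 summed to 1180 FPKM in the knockdown and 1179 FPKM with the non-silencing shRNA.

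**Figure D1:**
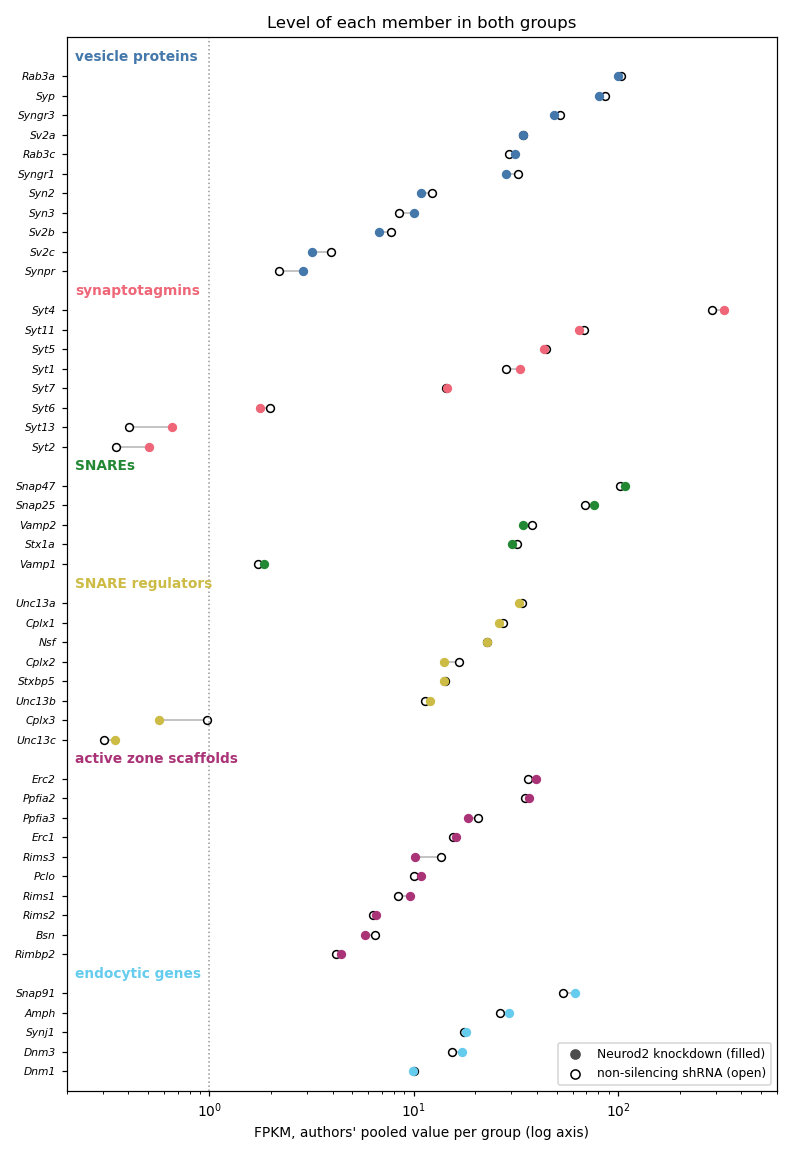
FPKM of the 47 members with a row (horizontal log axis), grouped by role and ordered by level within each role; filled points are the Neurod2 knockdown, open points the non-silencing shRNA, each the authors' pooled value of its group, and the dotted line marks 1 FPKM. The filled and open points lie close together for nearly all genes, Syt4 is the most abundant member, and Syt13, Syt2, Cplx3 and Unc13c lie below 1 FPKM.

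Among the proteins of the vesicle, the most abundant was Rab3a, the small GTPase that cycles on and off vesicles as they dock. Rab3a stood at 99.8 FPKM in the knockdown and 103 FPKM with the non-silencing shRNA, a log2 ratio of -0.05; its row also overlaps another coding gene and covers 0.641 of the union. Syp, which encodes synaptophysin, the classical marker protein of the vesicle membrane, stood at 80.2 FPKM in the knockdown and 86.7 FPKM with the non-silencing shRNA. Syngr3, a synaptogyrin of the same protein family, stood at 48.6 FPKM in the knockdown and 52.0 FPKM with the non-silencing shRNA. All of these ratios were slightly below 0, between -0.11 and -0.05. The related Syngr1 was at 28.2 FPKM in the knockdown and 32.3 FPKM with the non-silencing shRNA (log2 ratio -0.20). The third relative, Synpr (synaptoporin), went the other way and had the highest ratio of all 43 members, 0.39, at 2.87 FPKM in the knockdown and 2.19 FPKM with the non-silencing shRNA. At this low level the ratio is near the edge of the background, since the middle 90% of rows between 1 and 5 FPKM reached from -0.43 to 0.45.

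The SV2 glycoproteins, which span the vesicle membrane and bind synaptotagmin, were ordered Sv2a, Sv2b and Sv2c by level in both groups. Sv2a carried 77.4% of their summed FPKM in the knockdown and 74.6% with the non-silencing shRNA, and its own level was 34.2 FPKM in the knockdown and 34.3 FPKM with the non-silencing shRNA. The minor forms had lower values in the knockdown. Sv2b was at 6.79 FPKM in the knockdown and 7.75 FPKM with the non-silencing shRNA (log2 ratio -0.19), and Sv2c at 3.17 FPKM in the knockdown and 3.95 FPKM with the non-silencing shRNA (log2 ratio -0.32, the second lowest of the 43). The row of Sv2c also overlaps 2 other coding genes and holds an annotated small RNA gene, so its value may not be of Sv2c alone. Of the synapsins, which tie vesicles to actin, Syn2 was at 10.8 FPKM in the knockdown and 12.2 FPKM with the non-silencing shRNA, and Syn3 at 9.99 FPKM in the knockdown and 8.46 FPKM with the non-silencing shRNA (log2 ratio 0.24). Each has a further row at the same position with a ratio of the opposite sign, at 2.30 FPKM in the knockdown and 2.17 FPKM with the non-silencing shRNA for Syn2, and at 6.37 FPKM in the knockdown and 7.27 FPKM with the non-silencing shRNA for Syn3. Without gene names these rows cannot be told apart. The rows of Syn2 and of Syn3 also overlap 2 other coding genes each, so these values may not be of the synapsins alone. With rows summed, the log2 ratio was -0.13 for Syn2 and 0.07 for Syn3. Rab3c stood at 31.4 FPKM in the knockdown and 29.1 FPKM with the non-silencing shRNA. In all, 3 of the 11 vesicle genes past 1 FPKM had a ratio above 0, with a group median of -0.10, beside 41.6% and -0.03 for all rows.

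Synaptotagmins differ in how they sense calcium: Syt1 and Syt2 drive fast release, Syt7 binds calcium with higher affinity, and Syt4 and Syt11 lack calcium binding in one of their C2 domains and are found on other transport vesicles as well. Syt4 was the most abundant of all members, with 329 FPKM in the knockdown and 289 FPKM with the non-silencing shRNA (log2 ratio 0.19). It made up 67.5% of the FPKM of the 8 member synaptotagmins in the knockdown and 64.7% with the non-silencing shRNA, and 60.5% in the knockdown and 57.1% with the non-silencing shRNA with 7 further synaptotagmins counted in, so the synaptotagmin of highest level was not the fast sensor. Syt1, the main calcium sensor of the mature forebrain, made up 6.81% of the 8 in the knockdown and 6.31% with the non-silencing shRNA. The next in level were Syt11, with 64.7 FPKM in the knockdown and 68.2 FPKM with the non-silencing shRNA, and Syt5, with 43.1 FPKM in the knockdown and 44.2 FPKM with the non-silencing shRNA. Syt1 had 33.2 FPKM in the knockdown and 28.2 FPKM with the non-silencing shRNA, a log2 ratio of 0.23 and the third highest of the 43. The row of Syt1 also overlaps another coding gene, so its value may not be of Syt1 alone. With its 2 rows summed the log2 ratio was still 0.23. Syt7, with a log2 ratio of 0.01, was nearly equal in both groups. Syt6 was rare, at 1.77 FPKM in the knockdown and 1.99 FPKM with the non-silencing shRNA, and its second row pointed the other way, at 1.34 FPKM in the knockdown and 1.16 FPKM with the non-silencing shRNA. Syt2, the fast sensor of the hindbrain, and Syt13 lay under 1 FPKM and were marked by the authors as not tested. Syt2 was at 0.503 FPKM in the knockdown and 0.349 FPKM with the non-silencing shRNA, and Syt13 at 0.658 FPKM in the knockdown and 0.406 FPKM with the non-silencing shRNA. For Syt13 this is 1.62-fold, while 44% of all rows under 1 FPKM differed by over 1.5-fold.

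The SNARE genes proper held 2 of the most abundant members. Snap47, a relative of SNAP25 that is not confined to synapses, stood at 108 FPKM in the knockdown and 102 FPKM with the non-silencing shRNA. Snap25, the partner of syntaxin on the plasma membrane, stood at 76.2 FPKM in the knockdown and 69.0 FPKM with the non-silencing shRNA (log2 ratio 0.14). For the vesicle SNARE, Vamp2 carried 94.9% of the summed FPKM of Vamp1 and Vamp2 in the knockdown and 95.6% with the non-silencing shRNA. Vamp2 itself was at 34.04 FPKM in the knockdown and 37.9 FPKM with the non-silencing shRNA (log2 ratio -0.15). Stx1a, which encodes syntaxin 1A, was at 30.2 FPKM in the knockdown and 32.1 FPKM with the non-silencing shRNA. The partners of the SNARE complex thus did not share a direction, with Snap25 above 0 and Vamp2 and Stx1a below it.

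Among the regulators of the SNARE complex, Unc13a, which encodes the priming factor Munc13-1, was the most abundant, at 32.7 FPKM in the knockdown and 33.95 FPKM with the non-silencing shRNA. A further row at its position was at 19.0 FPKM in the knockdown and 21.8 FPKM with the non-silencing shRNA. The row used covers 0.779 of the union, overlaps another coding gene and holds an annotated small RNA gene. With its rows summed, Unc13a had a log2 ratio of -0.11. Its paralog Unc13b was at 12.1 FPKM in the knockdown and 11.4 FPKM with the non-silencing shRNA, and Unc13c, known from the cerebellum, was under 1 FPKM. Nsf, the ATPase that separates used SNARE complexes, and Stxbp5 (tomosyn), which competes with VAMP2 for syntaxin, had log2 ratios within 0.01 of 0. Nsf was at 22.7 FPKM in both groups. Of the complexins, Cplx1 was at 26.2 FPKM in the knockdown and 27.4 FPKM with the non-silencing shRNA, and Cplx2 at 14.1 FPKM in the knockdown and 16.7 FPKM with the non-silencing shRNA. Cplx3, a complexin of the retina and of a few cortical neurons, was at 0.563 FPKM in the knockdown and 0.975 FPKM with the non-silencing shRNA. The log2 ratios were -0.06, -0.24 and -0.79, so the ratio was lower the rarer the complexin. Cplx3 was 0.577 times its non-silencing value and passed 1.5-fold, but below 1 FPKM, where such differences were common. Of the 6 regulators past 1 FPKM, Unc13b alone had a ratio above 0, beside 41.6% of all rows. With the median of all rows set to 0, Nsf and Stxbp5 were above 0 too.

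The scaffolds of the active zone held the lowest ratio of the 43 members. Rims3, which encodes a short RIM protein without the domain that binds Rab3, was at 10.1 FPKM in the knockdown and 13.6 FPKM with the non-silencing shRNA, a log2 ratio of -0.43. It lies at chr4:120854816-120896579 (mm10, plus strand), no other row or coding gene shares its row, a level cell altered by a spreadsheet was restored for it with the deposited fold change as a checksum, and rows between 5 and 20 FPKM had a middle 90% from -0.28 to 0.21. Both long RIM genes had ratios above 0: Rims1 was at 9.58 FPKM in the knockdown and 8.41 FPKM with the non-silencing shRNA (log2 ratio 0.19), and Rims2 at 6.54 FPKM in the knockdown and 6.34 FPKM with the non-silencing shRNA. Rims4, a short RIM gene like Rims3 but no member, was the most abundant of the 4 and had a ratio above 0, at 18.2 FPKM in the knockdown and 16.5 FPKM with the non-silencing shRNA (log2 ratio 0.14). The share of Rims3 in the FPKM of the 4 RIM genes was 22.8% in the knockdown and 30.3% with the non-silencing shRNA. The row of Rims1 covers 0.649 of the union with the annotated gene. The most abundant scaffolds were Erc2, an ELKS protein, at 39.6 FPKM in the knockdown and 36.2 FPKM with the non-silencing shRNA, and Ppfia2, a liprin-alpha, at 36.8 FPKM in the knockdown and 35.1 FPKM with the non-silencing shRNA. Ppfia3 was at 18.4 FPKM in the knockdown and 20.7 FPKM with the non-silencing shRNA, though a further row at its position was at 7.23 FPKM in the knockdown and 6.28 FPKM with the non-silencing shRNA. The giant scaffolds piccolo and bassoon differed in sign, with Pclo at 10.8 FPKM in the knockdown and 10.1 FPKM with the non-silencing shRNA, and Bsn at 5.78 FPKM in the knockdown and 6.43 FPKM with the non-silencing shRNA. Erc1 and Rimbp2 had log2 ratios of 0.05 and 0.09. Ratios above 0 were found for 7 of these 10 genes, beside 41.6% of all rows.

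The endocytic genes had the highest group median, 0.16, with 4 of 5 ratios above 0, beside 41.6% of all rows. Snap91, which encodes the clathrin assembly protein AP180, was at 61.5 FPKM in the knockdown and 53.9 FPKM with the non-silencing shRNA (log2 ratio 0.19). Amph, for amphiphysin, was at 29.3 FPKM in the knockdown and 26.3 FPKM with the non-silencing shRNA (log2 ratio 0.16). Dnm3 was at 17.3 FPKM in the knockdown and 15.4 FPKM with the non-silencing shRNA. All of these lay inside the middle 90% of all rows. For rows of at least 20 FPKM, however, the middle 90% reached from -0.349 to 0.185. Snap91 (0.191) lay above this, as did the synaptotagmin genes Syt1 (0.235) and Syt4 (0.188). Syn3 (0.240) lay above the middle 90% of rows between 5 and 20 FPKM, which ended at 0.211. With its rows summed, however, Syn3 was at 0.07, inside that range, and its row also overlaps 2 other coding genes. Dnm1, the main neuronal dynamin of the adult brain, made up 24.3% of the FPKM of the 3 dynamin genes in the knockdown and 24.9% with the non-silencing shRNA, Dnm2 (no member) included, and had a log2 ratio of -0.02. These shares use 1 row per gene. The row used for Dnm2, at 13.6 FPKM in the knockdown and 14.9 FPKM with the non-silencing shRNA, overlaps another coding gene. All 3 rows of Dnm2 summed to 25.6 FPKM in the knockdown and 27.2 FPKM with the non-silencing shRNA, which would lower the share of Dnm1. Synj1, a lipid phosphatase that helps strip clathrin from new vesicles, was at 18.0 FPKM in the knockdown and 17.6 FPKM with the non-silencing shRNA, and it has 2 further rows at its position, at 15.97 FPKM in the knockdown and 14.8 FPKM with the non-silencing shRNA and at 1.00 FPKM in the knockdown and 1.10 FPKM with the non-silencing shRNA. The row used for Synj1 covers 0.695 of the union, overlaps another coding gene and holds an annotated small RNA gene.

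**Figure D2:**
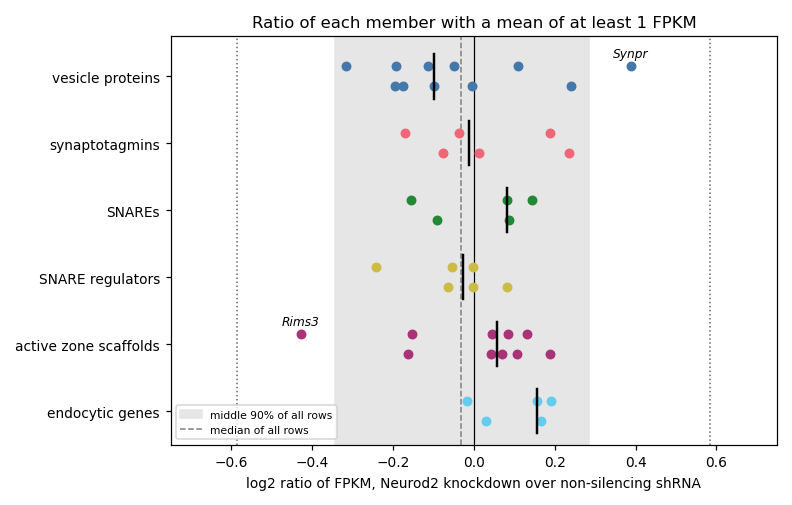
Horizontal axis, log2 of knockdown FPKM over non-silencing FPKM, for the 43 members with a mean of at least 1 FPKM, 1 point per gene and 1 line of points per role; black bars are group medians, the gray band is the middle 90% of all 12624 rows, the dashed line their median and the dotted lines mark 1.5-fold. Of the members, 41 lie inside the band, with Rims3 below it and Synpr above it, and none passes 1.5-fold.

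The ratios were also set against the length of the genes. Grouped by the span of the row on the chromosome, a split chosen after the values were seen, 13 of the 14 members of 200 kb or more had a ratio above 0, with a median of 0.12, while 51.1% of the 1077 rows of that span were above 0, with a median of 0.00296. Sv2b was the exception among them. Of the 17 members under 50 kb, 3 were above 0 (Syt4, Snap47 and Vamp1), with a median of -0.08, beside 36.1% of 8222 rows and a median of -0.05. The row of Vamp1 also overlaps 2 other coding genes, and with its 3 rows summed its log2 ratio was -0.05, below 0. Between these limits 5 of 12 members were above 0, beside 52.1% of rows. Left to the 26 members whose rows share their span with no other row and no other coding gene, the counts were 8 of 8 at 200 kb or more, 4 of 6 between and 2 of 12 under 50 kb. Across the 43 members the correlation of the log2 ratio with the logarithm of the span was r = 0.47, and Spearman's rho was 0.54, beside a rho of 0.19 across all rows. These points come from the same pair of pooled values, so they are not independent replicates. Of the 14 long members 6 are scaffolds, all above 0, and of the other 8 long members 7 were above 0. Both scaffolds under 50 kb, Rims3 and Ppfia3, were below 0, as were 12 of the 15 other members under 50 kb. What part span has in the ratios was not tested.

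**Figure D3:**
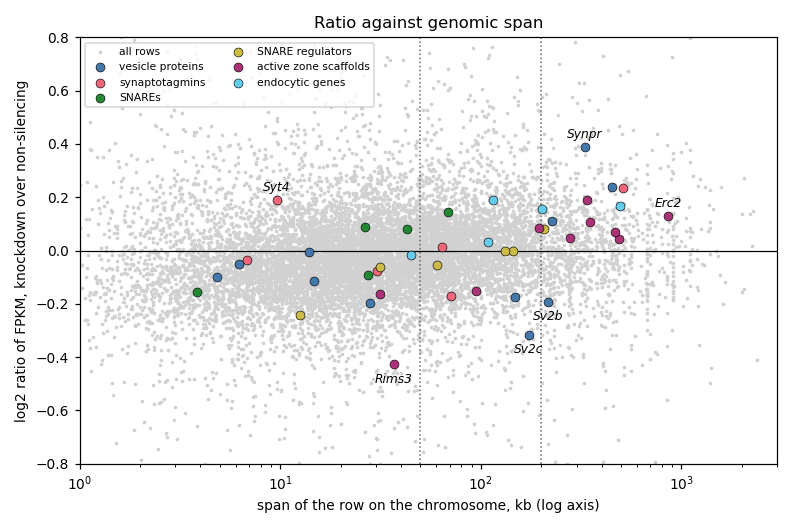
Vertical axis, log2 of knockdown FPKM over non-silencing FPKM, plotted against the span of the row on the chromosome in kb (horizontal log axis); colored points are the 43 members by role, gray points all rows with a mean of at least 1 FPKM inside the axes, and the dotted lines mark 50 and 200 kb. Of the 14 members right of 200 kb, 13 lie above 0 and Sv2b lies below it, while 3 of the 17 members left of 50 kb lie above 0.

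A list of 69 other genes of the release pathway, none of them a member, gave a background from the same machinery. Of these, 52 had a row with both values above 0 and a mean of at least 1 FPKM, and none of the 52 differed by over 1.5-fold (3.45% of all rows). A ratio above 0 was found for 31 of the 52 (59.6%), with a median of 0.02, beside 41.6% and a median of -0.03 for all rows. The most abundant were Ap2s1, a subunit of the clathrin adaptor AP2, with 466 FPKM in the knockdown and 464 FPKM with the non-silencing shRNA, and the clathrin light chain gene Clta, with 171 FPKM in the knockdown and 189 FPKM with the non-silencing shRNA. The clathrin heavy chain gene Cltc had 133 FPKM in the knockdown and 126 FPKM with the non-silencing shRNA, and Stx7, an endosomal syntaxin, 106 FPKM in the knockdown and 102 FPKM with the non-silencing shRNA. The highest ratios belonged to Cadps2, a priming factor of dense core vesicles, and Tspoap1, which encodes a RIM-binding protein, with log2 ratios of 0.45 and 0.34, and both passed 1.2-fold; they are named after their values were seen. For Atp6v0a1, a subunit of the proton pump that fills vesicles, the highest row was marked as not tested and was at 75.3 FPKM in the knockdown and listed at 0 with the non-silencing shRNA. It has a second row at the same position, and no fold is given. By span, 2 of the 4 other genes of 200 kb or more and 14 of the 28 under 50 kb were above 0, and rho was 0.19 across the 52. The difference from the members was not tested.

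NEUROD2 is a basic helix-loop-helix factor that binds E-boxes, sites of the form CANNTG, where N is any base. The RefSeq promoter windows of GRCm38.p6, which run from 250 bases before to 50 after a transcription start, were searched for this form; it reads the same on both strands. Windows were found for 39 of the 48 members, 50 windows in all. CANNTG was present in 37 of the 50 windows (74%), beside 72.3% of all 32851 windows. The form CAGCTG, which is included in CANNTG, was present in 16 of the 50 (32%), beside 16.3% of all windows, and CAGATG or its complement CATCTG in 6 of the 50 (12%), beside 17.2%. Windows of 1 gene are counted separately here, and Syt6 alone gave 3 of the 16 with CAGCTG. The share of all genes with CAGCTG in a window was not derived. CAGCTG occurred in a window of 14 members, 12 of them past 1 FPKM, and 4 of these 12 had a log2 ratio above 0 (median -0.03). Of the 23 other members past 1 FPKM with a window, 12 were above 0 (median 0.03). Of all rows, 41.6% were above 0 (median -0.03). The difference between these groups of members was not tested. A match is a description of letters and does not show a bound site. The paper recalls from its earlier work that most NEUROD2 sites lay away from promoters, at distant elements. These windows do not cover such elements. The windows of Rims3 and Synpr, the members outside the middle 90% of all rows, are printed first. They are followed by the CAGCTG windows of Rab3a, the most abundant member with this form, and of Syt1, the one with the highest ratio. Capitals mark CANNTG.
Rims3, chr4:120854549-120854848, plus strand: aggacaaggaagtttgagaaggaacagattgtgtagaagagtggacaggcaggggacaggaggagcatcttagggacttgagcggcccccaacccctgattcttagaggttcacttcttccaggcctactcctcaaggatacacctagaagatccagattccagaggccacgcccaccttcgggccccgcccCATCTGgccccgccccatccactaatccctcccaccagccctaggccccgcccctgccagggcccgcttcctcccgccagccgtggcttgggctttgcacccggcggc
Synpr, chr14:13284530-13284829, plus strand: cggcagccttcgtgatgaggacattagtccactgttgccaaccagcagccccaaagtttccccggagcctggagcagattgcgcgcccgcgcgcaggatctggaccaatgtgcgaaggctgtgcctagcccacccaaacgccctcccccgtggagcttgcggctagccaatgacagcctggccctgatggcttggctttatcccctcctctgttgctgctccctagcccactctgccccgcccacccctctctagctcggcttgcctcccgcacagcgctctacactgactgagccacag
Synpr, internal start, chr14:13453708-13454007, plus strand: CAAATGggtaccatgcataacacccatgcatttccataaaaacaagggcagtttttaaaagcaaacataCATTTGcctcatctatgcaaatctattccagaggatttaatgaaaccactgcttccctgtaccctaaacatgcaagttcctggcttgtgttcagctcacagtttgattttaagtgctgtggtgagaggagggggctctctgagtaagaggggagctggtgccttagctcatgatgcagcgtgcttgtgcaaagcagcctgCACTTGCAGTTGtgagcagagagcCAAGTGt
Rab3a, chr8:70754852-70755151, plus strand: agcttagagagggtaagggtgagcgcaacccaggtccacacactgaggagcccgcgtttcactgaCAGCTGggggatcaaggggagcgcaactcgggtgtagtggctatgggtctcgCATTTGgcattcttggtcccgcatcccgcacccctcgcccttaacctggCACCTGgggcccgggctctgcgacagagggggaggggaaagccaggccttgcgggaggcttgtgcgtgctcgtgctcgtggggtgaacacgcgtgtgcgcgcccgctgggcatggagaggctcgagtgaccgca
Syt1, chr10:109009062-109009361, minus strand: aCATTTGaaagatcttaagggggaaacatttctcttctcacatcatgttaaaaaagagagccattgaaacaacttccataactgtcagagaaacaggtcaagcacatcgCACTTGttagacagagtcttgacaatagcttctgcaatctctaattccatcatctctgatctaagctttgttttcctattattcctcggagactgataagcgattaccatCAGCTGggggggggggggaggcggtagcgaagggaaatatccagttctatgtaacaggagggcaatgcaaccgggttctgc
Rims3 holds 1 E-box, a CATCTG whose first base lies 58 bases before the start. The outer window of Synpr holds none and the internal window 5. In the Rab3a window CAGCTG begins 185 bases before the start of that window and in the Syt1 window 31 bases before its start. Each of these starts lies inside the annotated gene, like the internal start of Synpr. Rab3a and Syt1 have 2 windows each, and the other window of each gene, not printed, holds no CAGCTG. Rab3a and Syt1 each hold 3 E-boxes in these windows, and their log2 ratios were -0.05 and 0.23.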

How the data were processed

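RNA from primary cortical cultures was sequenced by the authors as 50 bp single-end reads, mapped to mm10 with TopHat, assembled with Cufflinks and compared with Cuffdiff, whose versions were not given in the sources used here. Deposited by the authors was a table with 1 FPKM value per group and row, pooled over 4 knockdown and 2 non-silencing libraries, and the depth per library was not derived here. Its fold changes, p-values and q-values are the authors' own comparison and were not used, apart from the log2 fold change as a checksum. A spreadsheet had turned level cells of 5033 rows into times of day; the numbers that give the same time were listed, and those whose log2 ratio met the checksum within 2e-05 were kept, which restored 4948 rows and left 85 open, none of them a member's. For 15 members a cell was restored in this way, and their ratios equal the deposited ones by construction. The step was tested on simulated cells.

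Genes were matched to rows by position in GENCODE M21 (GRCm38, the assembly of mm10). Where several rows matched, which was so for 15 members, the row with the highest mean FPKM was taken. Ratios are log2 of knockdown over non-silencing FPKM with no pseudocount, counted at a mean of at least 1 FPKM. With 1 value per group the planned tests between libraries were not possible. The members, gene lists and role groups were chosen with earlier results of these data known. Members were described by role; the 3 most abundant of each role, the members with the 6 highest and 6 lowest ratios of all, those past 1.5-fold and those whose rows disagree were named with both values. Python 3.11.15, numpy 2.4.6, pandas 2.3.3, scipy 1.17.1 and matplotlib 3.10.9 were used. Alternatives were pseudocounts, filters, other folds, centring, a stricter overlap, summed rows, and rows left out for shared span, status or altered cells.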

Additional observations from a re-analysis of the deposited data

How the results depend on the processing

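The median log2 ratio of the members stayed between -0.00264 and 0.03 under 12 alternatives, 1 of them (ratios relative to rows of the same span class) chosen after seeing the data. The count of members above 0 stayed within 1.5 times in each. It was lowest, at 14, of 26 members with shared spans left out and of 28 with no altered cell. These sets are smaller than the 43, and the share above 0 was 53.8% in the 26, beside 48.8% in the 43. Members past the fold remained at 0 under 10 of the alternatives. Without a minimum level they were 2, 1 higher (Syt13) and 1 lower (Cplx3), both below 1 FPKM. At 1.2-fold they were 3, 1 higher (Synpr) and 2 lower (Rims3 and Sv2c). Of the other release genes, 1 passed with a pseudocount of 0.1 or 1 FPKM and with rows summed (Atp6v0a1, through its row listed at 0), and 2 passed at 1.2-fold. Setting the median of all rows to 0 added 0.03 to every log2 ratio, and 25 of 43 members were then above 0, Nsf, Stxbp5, Sv2a and Dnm1 among them. Among the 47 single members, summing rows moved 3 by more than 0.1, a pseudocount of 1 FPKM moved 5 and a pseudocount of 0.1 FPKM moved 2. With rows summed, Vamp1 went below 0, at -0.05. No paired analysis was possible because the table holds pooled values of each group and no single library, and for the same reason no replicate could be left out.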
